A study of Mus musculus with 47 samples.

Results

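In single induced pluripotent stem cells (iPSCs) from a cross of the mouse strains Mus and Cast, 14 autosomal genes were read almost only from the Mus allele. They were selected on their counts. A gene was taken when it had at least 470 counts over both alleles and all 47 cells, a read in at least 15 cells, and at least 95% of its pooled counts from Mus, and when it was neither a known imprinted gene nor named Rps, Rpl or Zfp. Of 13947 genes in the table, 13515 were autosomal, and 2421 of these passed the minimum of counts and cells and the exclusion by name. The 14 genes are 0.578% of these 2421. At the opposite end, 102 genes (4.21%) had a Mus share of at most 5%. Since the share chose the genes, their shares are a description and no test was made on them.

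The labels put all cells in 1 group, iPSCs. The study describes the iPSCs of this experiment as XX or as XO, with the Cast or the Mus X chromosome lost. The names of the count columns carry this class but the labels do not, so the cells were pooled and the classes were not compared. They were reprogrammed by lentiviral overexpression of OSKM (Oct4, Sox2, Klf4 and Myc) from fibroblasts of embryos with a Mus mother, which carried an X-linked eGFP transgene, and a Cast father. The Mus allele was therefore the maternal one in every cell, and no reciprocal cross was analysed here, so that strain and parent of origin cannot be told apart. Per the labels the iPSCs were grown with LIF and ascorbic acid, whereas the methods describe passages of control iPSCs without ascorbic acid. These passages were also without doxycycline, which induced the lentiviral factors. They were sorted singly into a GpC methylase mix on 1 plate, and their polyA RNA was sequenced as 50-base single reads. The labels name no separate cultures, and cells of 1 plate were not treated as replicates. The depth was 71682 counts of both alleles in the shallowest cell, 167041 in the median cell and 216451 in the deepest. The 15 pluripotency markers in the table all had counts, and Pou5f1, Sox2 and Nanog were read in 46 or 47 cells, while Klf2 was read in 18, Tbx3 in 30, Prdm14 in 35 and Pecam1 in 36. Of 12 fibroblast markers in the table, 6, among them Col1a2, Postn, Lum and Pdgfra, had no count, and Col1a1, Thy1, Twist2 and Acta2 were read in at most 10 cells. Vim and Fn1, which many other cell types also express, were read in 34 and 47 cells.

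In a hybrid cell, an RNA read can be given to a parental allele only where it covers a position at which the strains differ in sequence, and most autosomal genes are transcribed from both alleles. Expression from 1 allele is best known from imprinted genes, which keep a mark from the egg or the sperm. Many housekeeping genes also have processed pseudogenes, copies of their spliced RNA that were inserted elsewhere in the genome, and a short read from a part where the copies do not differ matches several places equally well.

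Most of the 14 genes shared stretches of sequence with other genes, and examples longer than 1 read are printed here. Each was picked for likeness, as the first stretch found in the longest coding exon part with at most 2 differing bases. Over the whole alignments, differing bases were 9 of 771 (Dynlt1b and Dynlt1a), 2 of 1200 (Gapdh and Gm7336) and 13 of 952 (Psma5 and Gm8394). For Tuba1b they were 19 of 1336 (Tuba1c) and 23 of 1357 (Tuba1a). Uchl4 and Uchl3 differed at 29 of 851, and Snu13 and Gm5616 at 2 of 384. Each line holds 90 bases, 5′ to 3′ on the gene's own strand, from GENCODE transcripts placed on GRCm38. They are coding in the genes read from Mus, and the lines of the pseudogenes are their matching bases. Capitals mark bases that differ from the gene of the set that was read from Mus. Dynlt1b (chr17:6435008-6435097, exon 3, plus strand) and its paralog Dynlt1a (chr17:6311743-6311832, minus strand) did not differ over this stretch, and nor did Gapdh (chr6:125163347-125163436, exon 3, minus strand) and the processed pseudogene Gm7336 (chr7:51746720-51746809, plus strand). Psma5 (chr3:108265066-108265155, exon 3, plus strand) likewise had the same letters as the processed pseudogene Gm8394 (chr10:85313665-85313754, plus strand). In exon 4 of Tuba1b (chr15:98932473-98932562, minus strand), 1 base differed from Tuba1c (chr15:99037035-99037124, plus strand) and 1 other base from Tuba1a (chr15:98950925-98951014, minus strand). Uchl4 (chr9:64235419-64235508, plus strand) differed at 1 base from Uchl3 (chr14:101666509-101666598, exon 2, plus strand). Snu13 (chr15:82042279-82042368, exon 3, minus strand) differed at 2 bases from the processed pseudogene Gm5616 (chr9:48450524-48450613, plus strand).
Dynlt1b: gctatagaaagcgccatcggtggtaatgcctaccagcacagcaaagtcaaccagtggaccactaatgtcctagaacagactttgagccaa
Dynlt1a: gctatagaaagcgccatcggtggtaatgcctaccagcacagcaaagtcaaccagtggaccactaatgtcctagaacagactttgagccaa
Gapdh: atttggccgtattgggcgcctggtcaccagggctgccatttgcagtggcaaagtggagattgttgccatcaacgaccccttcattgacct
Gm7336: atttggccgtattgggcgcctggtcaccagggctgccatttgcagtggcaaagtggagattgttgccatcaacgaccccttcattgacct
Psma5: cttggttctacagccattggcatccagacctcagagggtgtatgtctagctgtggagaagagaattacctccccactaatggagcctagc
Gm8394: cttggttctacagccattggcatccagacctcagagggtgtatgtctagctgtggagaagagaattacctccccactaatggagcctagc
Tuba1b: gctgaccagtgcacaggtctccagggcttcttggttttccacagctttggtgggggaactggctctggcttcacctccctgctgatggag
Tuba1c: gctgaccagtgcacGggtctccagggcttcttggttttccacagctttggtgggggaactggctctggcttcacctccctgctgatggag
Tuba1a: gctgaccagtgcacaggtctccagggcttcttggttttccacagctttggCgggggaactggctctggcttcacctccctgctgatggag
Uchl4: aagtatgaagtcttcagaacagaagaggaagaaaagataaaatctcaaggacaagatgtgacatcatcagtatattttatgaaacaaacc
Uchl3: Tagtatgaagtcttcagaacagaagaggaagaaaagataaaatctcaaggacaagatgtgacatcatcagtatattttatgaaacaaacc
Snu13: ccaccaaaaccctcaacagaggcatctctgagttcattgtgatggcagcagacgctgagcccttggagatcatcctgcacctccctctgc
Gm5616: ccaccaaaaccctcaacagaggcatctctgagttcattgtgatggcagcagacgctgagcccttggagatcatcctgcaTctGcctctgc

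The pooled Mus share of the 2421 genes had a median of 46.4%. Genes became rare towards the Mus end, where 37 lay between 75 and 95%, against 259 between 5 and 25%. Just inside the limit were Srsf3 at 96.1%, Cpq at 95.9% and 1700019D03Rik at 95.6%. Just outside it were 4930461G14Rik at 94.4% (987 Mus and 58 Cast counts), Csnk2a1 at 92.6% (1035 and 83 counts) and Tuba1c at 92.5% (3290 and 267 counts). The exclusion by name removed 3 more genes over the limit, all for ribosomal proteins, which were Rps19 at 98.2%, Rps26 at 97.1% and Rpl7a at 96.2%. None of the 14 known imprinted genes that passed the minimum reached a Mus share of 95%.

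**Figure D1:**
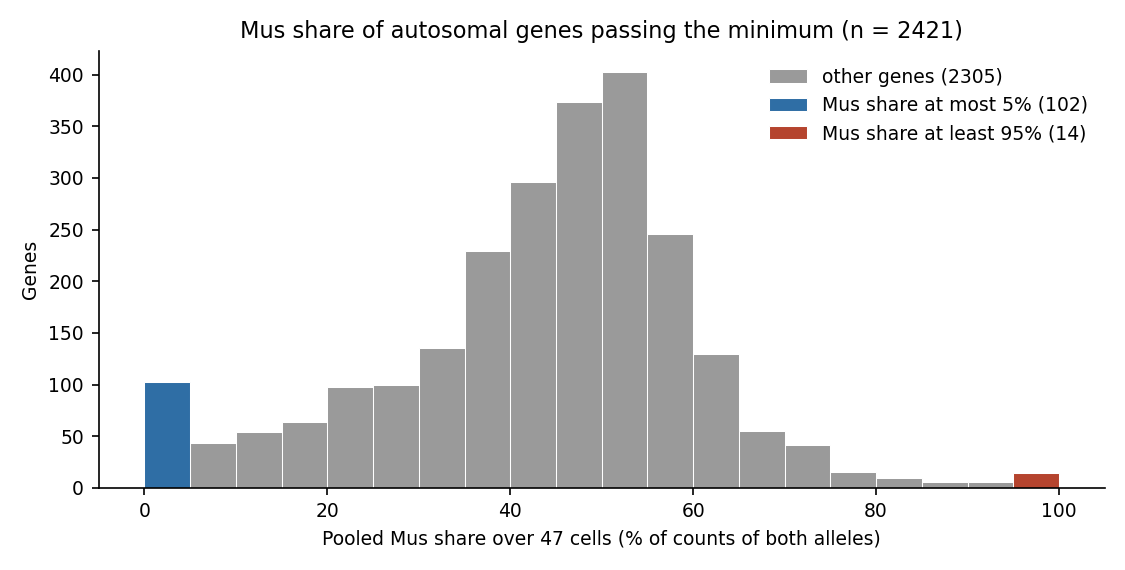
Number of autosomal genes by pooled Mus share (percent of the counts of both alleles over 47 cells), in bins of 5 percentage points. The 14 genes of at least 95% stand at the right edge, the 102 genes of at most 5% at the left edge, and the remaining genes centre near the median of 46.4%.

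The 14 genes were read broadly over the plate. A read was found in all 47 cells for 9 of them (64.3%), against 650 of the 2421 genes (26.8%). The depth behind the shares was also higher, with a median of 47.8 counts per cell against 22.2, although the number of counts of a gene depends on its length and on how many SNPs it holds, and counts of different genes are not levels of expression. Summed over the 14 genes, a cell held between 341 and 886 Mus counts (median 677) and between 1 and 33 Cast counts (median 12). The Mus share of this sum lay between 94.8 and 99.9% in single cells, with a median of 98.1%, whereas the sum over all 2421 genes lay between 41.8 and 45.2%. As the rule used the counts of these same cells, a high share of the sum is largely set by it. In some cells the counts of a single gene were nearly balanced, but few. The lowest Mus share of a cell was 50.0% for 1700019D03Rik (7 Mus and 7 Cast counts) and 54.5% for Cpq (6 and 5). Lncenc1 had 1 cell with Cast counts only, 4 in number. Shares of single cells on so few counts are uncertain. Within the 8 rows of the plate the share of their sum ran from 97.4 to 98.7%.

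**Figure D2:**
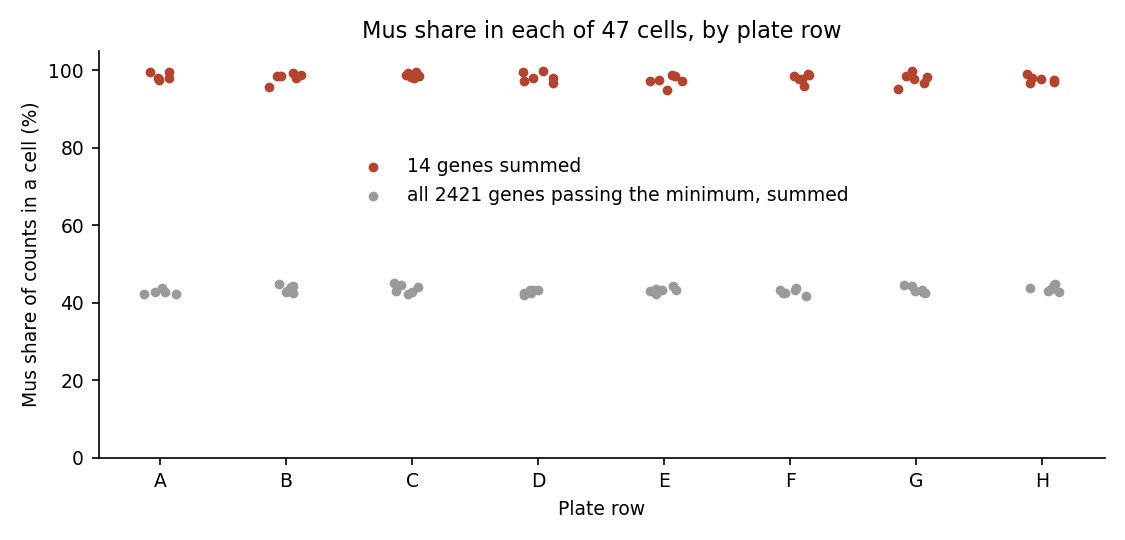
Mus share of counts in each of 47 cells (percent), by plate row A to H, for the 14 genes summed (red) and for all 2421 genes passing the minimum summed (grey). Each point is 1 cell, and the red points lie between 94.8 and 99.9% in every row while the grey points lie between 41.8 and 45.2%.

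Genes of protein turnover made up the first group, and all positions given for genes are those of GENCODE on GRCm38. Ubb (chr11:62551171-62553213), which encodes a chain of ubiquitin units joined head to tail, had the most counts of the 14 genes, with 6641 from Mus and 177 from Cast (97.4% Mus, exact binomial 95% interval 97.0 to 97.8%). Mus counts per cell ran from 52 over a median of 136 to 268, and Cast counts from 0 over 3 to 15, so that the lowest Mus value was above the highest Cast value. Cast counts were small but spread widely, over 43 of 47 cells and all 8 plate rows. The intervals of shares given here cover counting error only, as the reads carry no molecular identifiers and a read over several SNPs may have been counted more than once.

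Psma5 (chr3:108256926-108279974) encodes an alpha subunit of the ring that forms the core of the proteasome, the protease that degrades ubiquitin-tagged proteins. It had 2086 Mus and 4 Cast counts (99.8%, interval 99.5 to 99.9%), with 8, 39 and 97 Mus counts as the lowest, median and highest cell. Its Cast counts came from 2 cells, neither with more than 2. Of 35 genes with proteasome names among the 2421, which include the meiotic factor Psmc3ip (50.0%), Psma5 was the only one over the limit (1 of 35, 2.86%, beside 0.578% of all genes). The other 34 had a median of 49.9% and 30 of them lay between 25 and 75%, with Psmd6 lowest at 0.260%. Below the minimum of counts, the testis-type subunit Psma8 (327 Mus and 6 Cast counts) and the regulatory subunit Psmd2 (239 and 5) had shares of 98.2 and 98.0%.

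Uchl4 is a single-exon gene of 1162 bases that resembles Uchl3, an enzyme that frees ubiquitin from small adducts. All 568 of its counts were from Mus, spread over 46 cells with a median of 11 and a highest value of 27 in a cell. Its 0 Cast counts allow a Cast share of up to 0.528%. Uchl3 itself was read from both alleles, with 2365 Mus and 1901 Cast counts (55.4%). Over 851 aligned bases the transcripts of the pair were 96.6% identical. Uchl1, a family member found in neurons, stood at the other side with 4.61%, and Uchl5, which works at the proteasome, at 34.9%. Cpq (chr15:33083129-33594552), a secreted peptidase, had 958 Mus and 41 Cast counts (95.9%, interval 94.5 to 97.0%), and in single cells 0, 17 and 48 Mus counts as lowest, median and highest. Cast counts of Cpq were seen in 14 cells and in all 8 plate rows, and its share within rows ran from 91.2 to 99.1%.

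Among genes of RNA processing, Snu13 encodes a protein that binds a folded motif in the U4 spliceosomal RNA and in box C/D small nucleolar RNAs. It had 3198 Mus and only 6 Cast counts (99.8%, interval 99.6 to 99.9%). Mus counts per cell were 19 at the lowest, 65 at the median and 145 at the highest, and the 6 Cast counts came from 2 cells with at most 3 each. The other 5 measured genes of the same particles, from a list drawn up after the 14 genes were known, lay between 32.9% (Nop58) and 69.3% (Fbl). Srsf3, a splicing factor of the SR family, had 2972 Mus and 122 Cast counts (96.1%, interval 95.3 to 96.7%). Its Mus counts ran from 11 over 64 to 123 per cell and its Cast counts from 0 over 2 to 11, so that the lowest Mus and highest Cast value met. Cast counts of Srsf3 were present in 32 cells. The other 6 SR genes measured ran from 0% (Srsf10, 604 Cast counts) to 57.4% (Srsf7), so the family held a gene at either end.

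Cytoskeletal genes were represented by Tuba1b and Dynlt1b. Tuba1b, a major alpha-tubulin, had 2928 Mus and 29 Cast counts (99.0%, interval 98.6 to 99.3%). Every cell had between 22 and 113 Mus counts, with a median of 64, while 11 cells had any Cast count and 1 cell held 34.5% of them. Its neighbours in the alpha-tubulin cluster were also read mainly from Mus, Tuba1c at 92.5% and Tuba1a at 85.3% (638 Mus and 110 Cast counts). These are the genes that share the most sequence with Tuba1b among those measured, and reads of the 3 genes may not be separable, so their shares are uncertain. Other tubulins that passed the minimum ranged widely, from Tubb2b at 78.6%, Tubb4b at 62.3% and Tuba3a at 38.7% to Tuba4a at 22.3%, Tuba3b at 13.3%, Tubb6 at 7.29% and Tubb5 at 0.0268% (5 Mus and 18664 Cast counts).

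Dynlt1b encodes a light chain of dynein, the motor that carries cargo along microtubules. It had 2399 Mus counts and none from Cast, and a count of 0 allows a Cast share of up to 0.125% (3 counts of the total). Between 4 and 99 Mus counts were found in each cell, with a median of 54, and this was the deepest of the 3 genes with no Cast count at all. The gene lies in a cluster of near-identical copies, and the transcripts of Dynlt1b and Dynlt1a were 98.8% identical over 771 bases. Of the copies, Dynlt1f was in the table with 4 Mus and 4 Cast counts. Counts of Dynlt1b are therefore uncertain as a measure of 1 copy.

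Of the metabolic genes, Gapdh (chr6:125161715-125166467) encodes the glycolytic enzyme that oxidizes glyceraldehyde-3-phosphate. It had 2533 Mus and 58 Cast counts (97.8%, interval 97.1 to 98.3%). Mus counts ran from 3 over a median of 56 to 103 per cell and Cast counts from 0 to 9, in 22 cells. The lowest Mus share of a cell was 60.0%, from only 3 Mus and 2 Cast counts. Among 11 glycolytic genes Gapdh was the only one over the limit (1 of 11, 9.09%). The other 10 had a median of 44.2%, from Pgam1, the phosphoglycerate mutase, at 4.72% to Ldhb, a lactate dehydrogenase subunit, at 78.4%. Large counts from both alleles were seen for Aldoa, with 7340 from Mus and 8208 from Cast. Other housekeeping lists held none of the 14 genes, with 0 of 62 nuclear genes of oxidative phosphorylation (median share 46.1%), 0 of 34 translation factors (47.1%) and 0 of 25 chaperones (49.3%). With 0.578% of all genes over the limit, a count of 0 or 1 in lists of this size is not a result about the lists.

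Impdh2, which catalyses the committed step of guanine nucleotide synthesis, had 1319 Mus and 17 Cast counts (98.7%, interval 98.0 to 99.3%). It was read in 44 cells, with 24 Mus counts in the median cell and 97 in the highest, and Cast counts were seen in 5 cells. The 7 other purine synthesis genes measured, again from a list drawn up later, ran from 28.3% (Atic) to 58.4% (Adsl). Tomm20 (chr8:126930667-126945844), a receptor for proteins entering the mitochondrion, had 1092 Mus and 36 Cast counts (96.8%, interval 95.6 to 97.8%) and 6, 22 and 84 Mus counts as its lowest, median and highest cell. Subunits that work beside it were read from both alleles, such as Tomm40 at 44.5% and Tomm7 at 52.0%. The import genes Timm23 and Tomm40l were at the Cast end with 0.179 and 0%.

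The remaining genes were Asxl3, Lncenc1 and 1700019D03Rik. Asxl3, a relative of the Polycomb-linked Asx gene of the fly, had 629 Mus counts in 47 cells and none from Cast, which allows a Cast share of up to 0.477%. Its Mus counts ran from 2 over 13 to 65 per cell. Lncenc1 (chr13:97434970-97497007), a long noncoding RNA of naive pluripotent cells, was the only gene of the 14 that does not encode a protein. It had 2688 Mus and 72 Cast counts (97.4%, interval 96.7 to 98.0%). Lncenc1 also varied widely, from 0 over a median of 53 to 211 Mus counts per cell. It was read in 43 cells, and in 1 of these only Cast was read, with 4 counts. Of 6 other noncoding transcripts of pluripotent cells that passed the minimum, Platr5 was lowest at 14.2% and Platr6 highest at 86.4%. Below the minimum, Platr7 had 194 Mus and 4 Cast counts (98.0%) and Platr1 2 and 29 (6.45%).

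The gene 1700019D03Rik (chr1:52922324-53020179), which carries a clone name here, had 1191 Mus and 55 Cast counts (95.6%, interval 94.3 to 96.7%) in 41 cells. Mus counts reached 116 in the highest cell over a median of 25. Its Cast counts were uneven, since 1 cell held 22 of the 55, and within plate rows its Mus share ran from 88.9 to 100%. That is the widest spread between rows among the 14 genes.

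**Figure D3:**
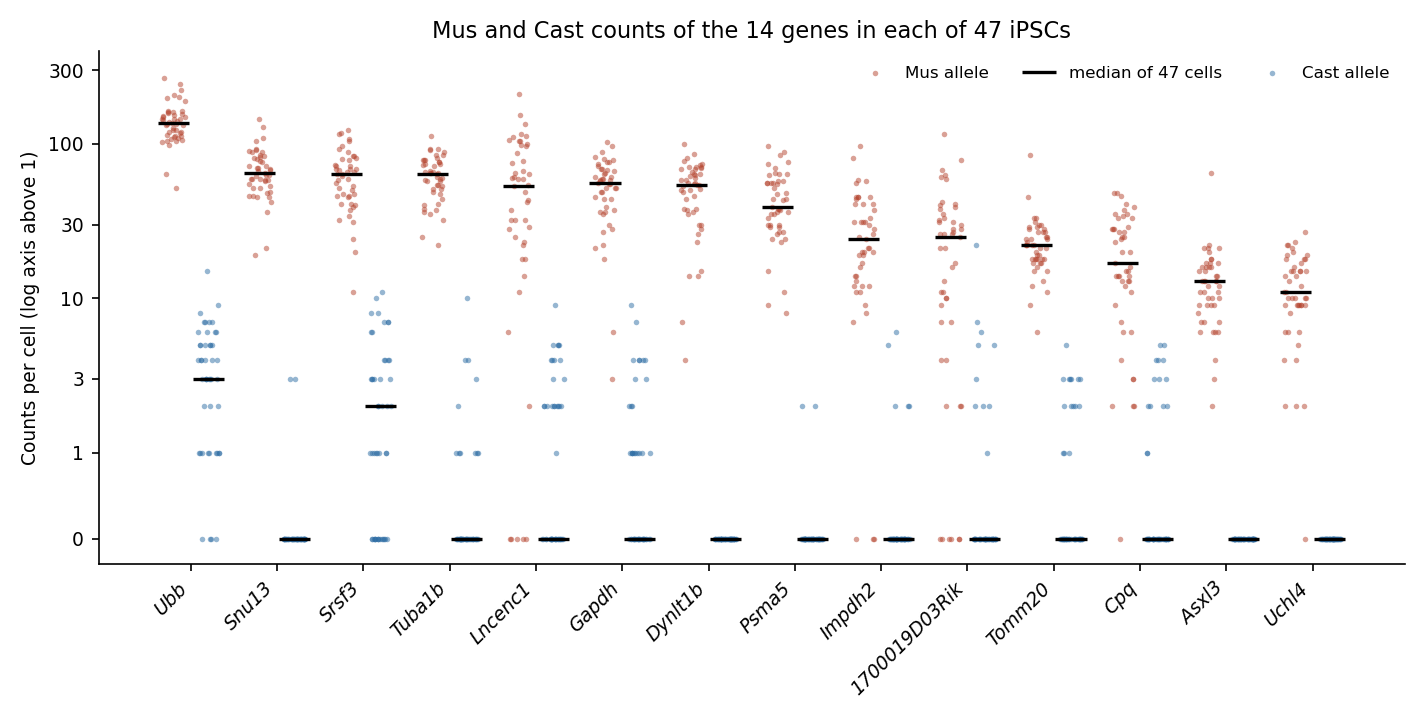
Counts per cell of the Mus allele (red) and the Cast allele (blue) for the 14 genes, ordered by total count, on a log axis above 1. Each point is 1 of 47 cells and black bars are medians, which lie at 0 for Cast in all genes but Ubb (3) and Srsf3 (2).

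The reprogramming factors delivered by lentivirus were not among the 14 genes. Pou5f1 (Oct4) had 940 Mus and 706 Cast counts (57.1%) and Sox2 510 and 333 (60.5%). Klf4, below the minimum, had 96 and 222 counts (30.2%). Myc was not analysed here. Whether reads of the lentiviral copies entered these counts was not tested.

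Along the chromosomes the 14 genes were far apart. They lay on 10 autosomes, with Cpq, Snu13 and Tuba1b on chromosome 15, Dynlt1b and Srsf3 on chromosome 17, and Uchl4 and Impdh2 on chromosome 9. The closest pair was Snu13 (chr15:82040525-82047598) and Tuba1b (chr15:98931425-98934565) at 16.9 Mb, followed by Dynlt1b (chr17:6430112-6436296) and Srsf3 (chr17:29032628-29043373) at 22.6 Mb. None of the 14 genes had another within 1 Mb (0 of 14), nor within 2 Mb. At the Cast end, where more genes met the limit, 49 of 102 genes (48.0%) had another such gene within 1 Mb and 62 of 102 (60.8%) within 2 Mb. With 14 genes over all autosomes few close pairs would be seen in any case, and the different numbers of genes at the ends limit the comparison.

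Most genes next to the 14 were read from both alleles. Taking the nearest gene of the 2517 passing the count and cell minimum on each side gave 28 neighbours, whose median Mus share was 45.1%, against 46.2% for the neighbours of all 2421 genes. Between 25 and 75% lay 23 of the 28 (82.1%), close to the 82.2% for the neighbours of all genes. Genes at the Cast end differed from this, with a median neighbour of 28% and 51 of 204 neighbours at or below 5%. Dynlt1b, for example, lay between Gtf2h5 at 57.4% and Ezr at 47.7%, which are 350 and 327 kb away. Uchl4 lay between Zwilch at 54.2% and Tipin at 49.5%, at 80.7 and 57.7 kb. Of the 28, Tuba1a beside Tuba1b was the only one above 75%. Below 25% lay 4, among them Rhebl1 at 17.8% beside Tuba1b, and Cct5 at 15.4% and Rpl30 at 0% on either side of Cpq, more than 1 Mb off.

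**Figure D4:**
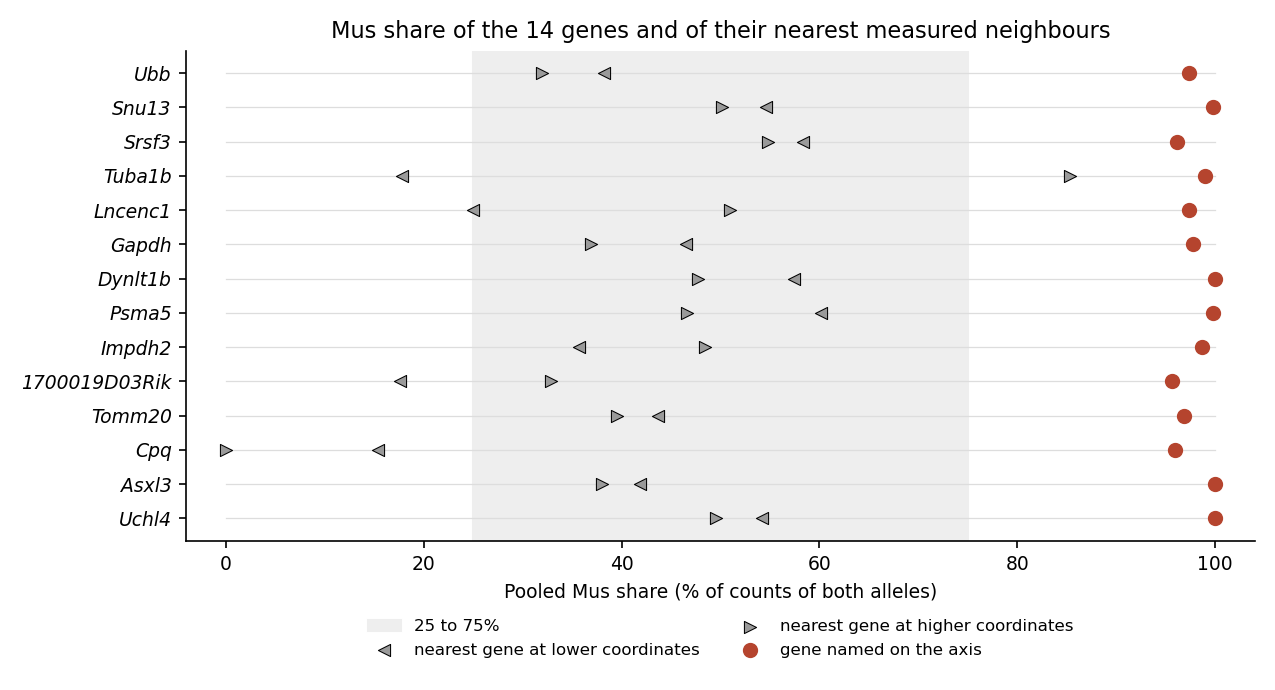
Pooled Mus share (percent) of each of the 14 genes (red) and of the nearest measured gene at lower and at higher coordinates (grey triangles), with 25 to 75% shaded. Of the 28 neighbours, 23 fall in the shaded range and Tuba1a alone lies above it.

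Some of the 14 genes overlap others. Another annotated gene overlapped 9 of the 14, and its exons overlapped those of 5. The same counts were not made over all genes, so these are a description only. Impdh2 (chr9:108560286-108565584, plus strand) overlaps Ndufaf3 on the minus strand, an assembly factor of respiratory complex I, and Ndufaf3 was read from both alleles with 416 Mus and 444 Cast counts (48.4%). Psma5 overlaps the antisense gene 1700010K24Rik, which had 0 Mus and 10 Cast counts, and Gapdh overlaps Iffo1 with 5 and 0. Libraries of this kind do not mark the strand, and reads in such overlaps cannot be given to 1 gene by strand. The exon of Uchl4 (chr9:64235201-64236362) lies in an intron of Map2k1.

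Sequence shared with other places in the genome was more common among the 14 genes than among all genes. For each gene, every 50-base window of its transcripts, 1 read long, was looked up in the transcripts of all genes elsewhere, on both strands and with no mismatch. The share of such repeated windows had a median of 25.5% over the 14 genes (range 0 to 83.2%) and of 0% over the 2421. At least 10% of windows were repeated in 10 of the 14 genes (71.4%), against 187 of the 2421 (7.72%) and 17 of the 102 genes at the Cast end (16.7%). An annotated pseudogene held a window of 10 of the 14 (71.4%), against 38.9% of all genes and 37.3% at the Cast end. This measure was not used to choose the genes. Its part in the allelic shares was not tested.

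Repeats were densest in Dynlt1b (83.2% of windows, shared with 4 genes), Tuba1b (74.3%, 18 genes), Psma5 (49.1%, 2 genes), Ubb (48.1%, 5 genes) and Impdh2 (39.3%, 1 gene). In the longest transcript alone, Impdh2 reached 73.9%, above Ubb at 55.4% and Psma5 at 54.5%, and Srsf3 18.3%. Tuba1c alone held 53.6% of the windows of Tuba1b. Impdh2 shared all its repeated windows with the processed pseudogene Impdh2-ps, which matched it at 99.7% of 1545 bases. Most copied of the 14 was Gapdh, whose repeated windows (24.7%) were found in 222 other genes, of which 213 are annotated pseudogenes. Its 24.7% is taken over 13 transcripts, the longest of them a single exon of 3289 bases. A coding transcript of 1273 bases aligned with the processed pseudogene Gm7336 over 1200 bases, of which 1198 were identical. The share thus understates the repeats in spliced Gapdh RNA. Snu13 shared 11.5% of windows with 23 genes and Srsf3 10.0% with 10 genes, as in the stretch of Snu13 printed above. The 26.9% of 1700019D03Rik all came from Tespa1, a gene of lymphocytes with 22 Mus and 6 Cast counts, over 1739 aligned bases that were 98.5% identical.

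Uchl4 shared 26.2% of its windows, all with Uchl3. The remaining genes had few repeated windows or none. Tomm20 had 6.24%, all from 12 pseudogenes, of which Gm14494 was 99.5% identical to it over 435 bases. Lncenc1 and Cpq had no repeated 50-base window and Asxl3 had 0.309%. In Asxl3 the repeated windows were spread over 215 genes, none with more than 39 windows. Of the 3 genes without any Cast count, Dynlt1b and Uchl4 were thus partly repeated (83.2 and 26.2%) and Asxl3 hardly at all.

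**Figure D5:**
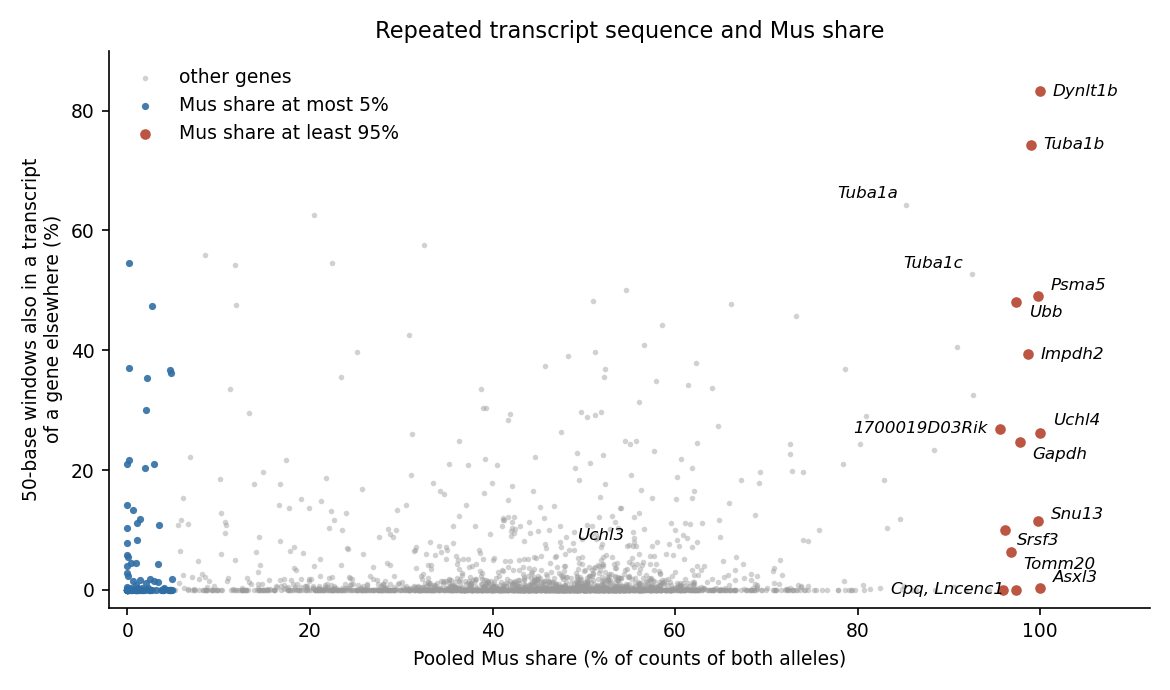
Share of 50-base windows also found in a transcript of a gene elsewhere (percent) against the pooled Mus share (percent) for 2421 autosomal genes. Red points are the 14 genes, 10 of them at or above 10%, blue points the 102 genes of at most 5% Mus, and grey points all others.

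Across the range of Mus shares, genes with at least 10% of repeated windows were rarest in the middle, at 5.82% of 2009 genes between 25 and 75%. They made up 12% of 259 genes between 5 and 25%, and 32.4% of 37 genes between 75 and 95%. Seen from the other side, 10 of the 187 genes with at least 10% repeated windows (5.35%) were read almost only from Mus, 17 (9.09%) were at the Cast end, and 117 (62.6%) lay between 25 and 75%, a range that held 2009 of all 2421 genes. Of the 11 genes with at least 50% repeated windows, only Hspb1 (54.6%) and Oas1a (32.5%) lay in that range. Above it were Dynlt1b, Tuba1b, Tuba1c (92.5%) and Tuba1a (85.3%), and below it Tufm (22.4%), Kpna2 (20.4%), Gstp2 (11.8%), Ddx18 (8.51%) and Timm23 (0.179%). The ribosomal protein genes left out by name had 35.6% (Rpl7a, in 123 genes), 16.2% (Rps26) and 6.37% (Rps19) of windows repeated.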

How the data were processed

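Single cells were sequenced on 1 plate, and 47 were analysed. The authors deposited a table of unnormalized allelic read counts per gene, with a Mus and a Cast column for each cell. The submitters' processing notes name STAR 2.5.3a and mm10. The methods describe, for Smart-seq2 libraries, alignment to a genome with masked SNPs, assignment of reads to alleles and a minimum of 4 SNPs per gene, and do not name this plate separately. They quantified uniquely aligned reads for total expression, and for allelic counts the treatment of reads with several matches is not given in the sources used here.

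Genes were placed on GRCm38 with GENCODE M21 (13945 genes) and RefSeq (1 gene). Shares were pooled over cells, with exact Clopper-Pearson 95% intervals. The limit behind a count of 0 is 3 counts of the total. Neighbours were genes passing the count and cell minimum. Repeated windows had been planned on the genome, and transcripts were used instead, so that copies without an annotated transcript were not seen. Transcript pairs were aligned with blastn 2.17.0. Scripts ran on pandas 2.3.3 and scipy 1.17.1 and were tested on simulated data. With 1 group in the labels, no test between groups was made.

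The members and lists were chosen with earlier results of these data known. Named genes were all members and the genes around the limit. Genes that share sequence with them, neighbours, and examples from families were named after their values were seen. The values of 1 neighbouring gene are not reported here. Alternatives covered each limit of the rule, single cells, distances, neighbours, window length and transcripts.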

Additional observations from a re-analysis of the deposited data

How the results depend on the processing

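The number of genes was 14 as reported. It fell to 6 at a minimum Mus share of 0.99, with Snu13, Tuba1b, Dynlt1b, Psma5, Asxl3 and Uchl4 remaining, so the size of the group depends on that limit. At 0.90 it was 20. A lower minimum of counts gave 21 genes and one of 940 counts gave 12, without Asxl3 and Uchl4. The same 14 genes were found with reads in at least 5 or 30 cells, with counts scaled to the total of each cell, without each gene's highest cell, and without the cell of lowest total. Keeping the excluded names gave 17. The other measures moved by less than the spread among the genes. With windows of 32 bases the median repeated share was 29.6% (0.678% over all genes), with the longest transcript 26.7% (0%), and with 3 neighbours on each side the median neighbour was 46.6%. Within 0.5 Mb, too, no gene had another. No paired analysis was possible because the labels give 1 group, with no other group to share its replicate numbers. Depth limits the genes with no Cast count, for which a Cast share of up to 0.528% cannot be seen. The labels give no group to set beside these cells, and the classes in the column names were not compared. Neither the reads nor the number of SNPs per gene were analysed here.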
